A study of Mus musculus with 79 samples.

Results

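The distal stump is the part of a cut nerve that has lost its connection to the cell bodies and into which regrowing axons must enter. RNA of the tibial nerve stump was sequenced 5 days after nerve surgery in mice whose stump received its graft after a delay of 8 weeks or at once, and these 16 libraries, chosen by the sample labels alone, are described here across all genes. They are 16 of the 79 libraries of the study, which also holds macrophages and Schwann cells sorted from the regenerating bridge. The 9 delayed libraries came from 5 female and 4 male mice and the 7 immediate libraries from 3 female and 4 male mice, each library from 1 animal by its mouse number.

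In both groups a freshly cut common peroneal nerve was joined to the tibial stump. In the delayed group the tibial branch had been cut and sutured to the quadriceps muscle 8 weeks earlier, whereas in the immediate group the operation site had only been opened and closed 8 weeks earlier and the tibial nerve was cut on the day of repair. The stump had therefore been without axons for 8 weeks and 5 days in one group and for 5 days in the other. By mouse number, the stumps came from animals that also gave sorted cells, and the sorting experiments used mice with enhanced GFP under the human S100β promoter. No label gives the genotype of single animals, and their age is not given in the sources used here. The tissue field of the labels names the regenerative bridge while the cell type field names the distal stump. Levels are in CPM, each count set against its library's total, after scaling with the trimmed mean of M values (TMM), and a change is the log2 fold change of delayed over immediate repair, with the standard error (SE) of the fit.

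After a nerve is cut, Schwann cells in the distal stump leave the myelinating or ensheathing state, express Jun, Shh and neurotrophic factors, divide and line the paths that regrowing axons follow. This repair state is known to fade when the stump stays without axons for a long time. Macrophages clear myelin debris there, and endothelial cells, pericytes, mast cells and several kinds of fibroblasts make up the rest of the nerve.

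Library totals ran from 3898778 to 8992326 counts with a median of 5707413 in the delayed group, and from 4563028 to 9212710 with a median of 7546357 in the immediate group. On the first principal component, which held 42.3% of the variance, the delayed libraries lay between -39.7 and -1.46 and the immediate libraries between 6.72 and 48.3. All 13 Schwann cell marker genes were among the 12229 genes tested, and defining genes of nerve such as Sox10 and Mbp were read in every library. Genes of skeletal muscle and of red blood cells stood high in some libraries. The summed level of erythroid genes was 2835, 1032 and 1054 CPM in delayed replicates 6, 7 and 1, at most 267.5 CPM in the other delayed and 392.7 CPM in the immediate libraries, with group medians of 94.3 and 95.8 CPM. None of the 3 erythroid genes tested passed in edgeR, DESeq2 or limma-voom, 2 were higher at an unadjusted p under 0.05, and the part of blood in the immune and vessel values was not tested. Ttn, the giant spring protein of striated muscle, was at 6915 CPM in delayed replicate 5, 578.1 CPM in delayed replicate 9 and 263.4 CPM in delayed replicate 6. Its median in that group was 50.2 CPM, and its highest immediate value was 48.7 CPM.

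After delay, more genes were lower by a large factor than higher. Of the genes tested, 26.3% passed at a Benjamini-Hochberg adjusted p under 0.05 in edgeR's quasi-likelihood test, 12.8% higher and 13.5% lower after delay. Among those called, 441 were lower by more than 2-fold and 116 higher by more than 2-fold. Past 4-fold the counts were 123 lower and 5 higher, and past 8-fold they were 38 and 2. The median change of all tested genes was 0.02, with 6412 values above 0 and 5817 below. In 572 genes (4.68% of those tested) the 2 groups did not overlap at all, 435 of them lower and 137 higher after delay. In 55 tested genes every library at or over the filter of 5 CPM belonged to 1 group, so that these genes had to differ, 37 of them through the immediate and 18 through the delayed group. Among the genes of the lists below they were Col2a1, Col26a1, Gjb1, Pou3f1 and Bdnf.

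**Figure D1:**
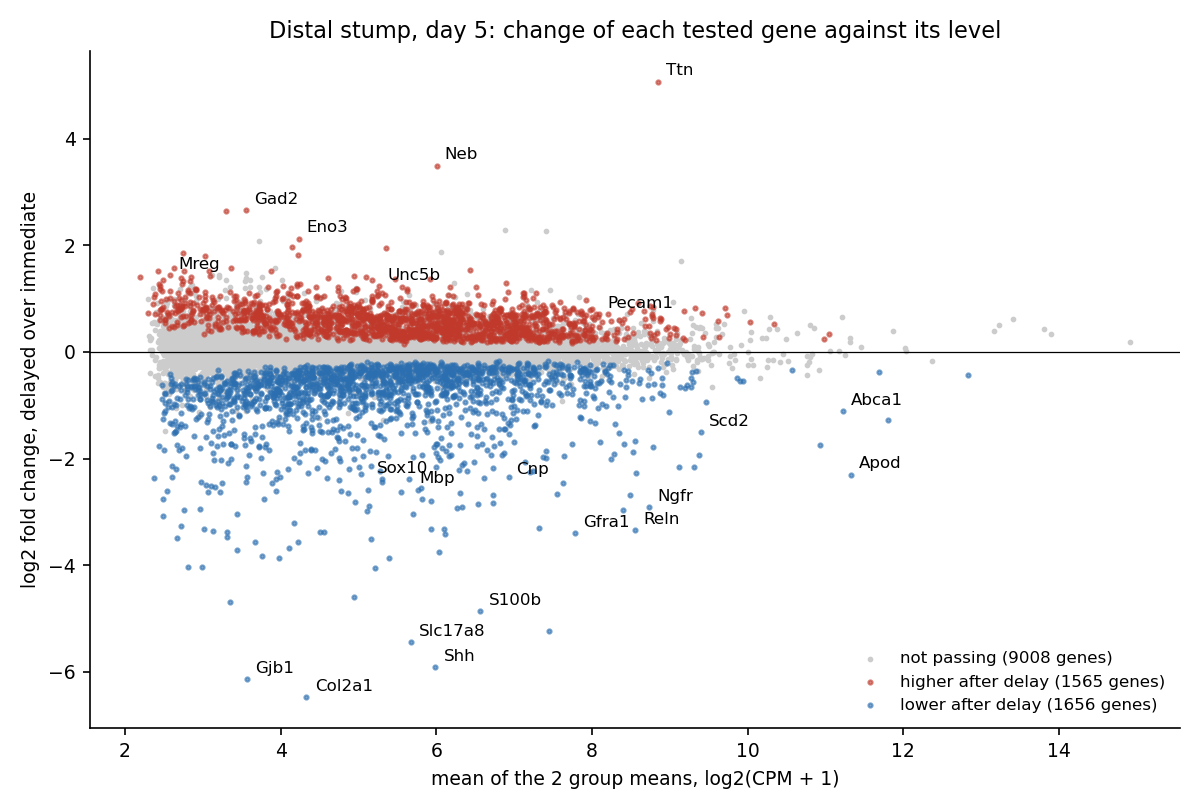
Each point is 1 of the tested genes, with the mean of both group means as log2(CPM + 1) on the x axis and the log2 fold change of delayed over immediate repair on the y axis, and colour marks genes past an adjusted p of 0.05. The 1656 lower genes reach -6.47 (Col2a1) while all but 5 of the 1565 higher genes, Ttn, Neb, Gad2 and Eno3 among those 5, stay under 2.

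Among the most reduced genes were several known from Schwann cells, and some stood near 0 after delay. Col2a1 (chromosome 15, 97975602 to 98004695 in GRCm38), a fibrillar collagen best known from cartilage, ranged from 0 to 1.35 CPM with a median of 0.171 after delay and from 13.3 to 71.5 with a median of 37.7 CPM after immediate repair. It fell by 6.47 (SE 0.532) on the log2 scale, with an adjusted p of 4.49e-07. Gjb1 (chromosome X, 101376378 to 101385629), which encodes connexin 32 of the Schwann cell's myelin, ranged from 0 to 0.841 CPM after delay against 8.64 to 49.9 CPM and fell by 6.14 (SE 0.497). These 2 genes were almost silent in the delayed stump and present in every immediate one.

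Shh (chromosome 5, 28456815 to 28467256) encodes Sonic hedgehog, a secreted signal that Schwann cells switch on after injury. It ranged from 0.14 to 8.89 CPM with a median of 0.458 after delay and from 56.8 to 172.7 with a median of 155.9 CPM after immediate repair. It fell by 5.91 (SE 0.572, adjusted p = 2.32e-06), with no overlap between the groups. Slc17a8, a vesicular glutamate transporter, fell by 5.45 (SE 0.385), from a median of 93.6 to 1.26 CPM. Also among the 12 largest falls without overlap were Syt4, S100b, Spock1, Matn4, Arnt2, Atp10b and Pou3f1, with falls from 3.87 to 5.24. Of the genes named here, Col2a1, Gjb1, Spock1, Atp10b and Pou3f1 reached the filter in immediate libraries alone.

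Rises were smaller. The 12 largest among called genes without overlap between the groups ran from 1.10 for Sned1, an extracellular matrix protein, to 2.13 for Eno3, the muscle form of enolase. Unc5b, a netrin receptor, ranged from 46.7 to 59.3 CPM after delay against 13.6 to 29.4 CPM and rose by 1.24 (SE 0.128, adjusted p = 5.27e-06). Sox7, an endothelial transcription factor, rose by 1.15 (SE 0.188) from a median of 9.94 to 21.9 CPM. Nox4, which makes hydrogen peroxide, rose by 1.11 (SE 0.193), from a median of 20.3 to 48.1 CPM. Mreg, Pcdhb9, Lrrc55, Nlrc3, Nlrp1c-ps and Zmynd15 rose by 1.15 to 1.44. Of these, Mreg, Pcdhb9, Lrrc55 and Nlrc3 reached the filter in delayed libraries alone.

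Eno3 and Myom1, an M band protein of muscle, are the exceptions in this group, since 1 library carried much of their change. In delayed replicate 5 they stood at 167.7 and 81.2 CPM, and in the other delayed libraries at 8.19 to 26.0 and 14.3 to 21.1 CPM. Without that library Eno3 was 0.80 higher (adjusted p = 0.0235) and Myom1 0.75 (adjusted p = 0.000567). The Eno3 call was lost without immediate replicate 6, 7 or 2. Among the 5 genes called more than 4-fold higher, examined after their values were seen, were the muscle genes Ttn, Neb and Eno3, and Gad2. Summed over 20 muscle markers, delayed libraries ranged from 49.8 to 11430 with a median of 85.9 CPM and immediate libraries from 34.0 to 87.9 CPM. Only Ttn and Neb of these markers passed the filter on low values. Without delayed replicate 5, Ttn was 2.39 higher (adjusted p = 0.0148) and Neb 1.25 (adjusted p = 0.0971). Delayed replicates 9 and 6, with Ttn at 578.1 and 263.4 CPM, stayed in these fits and in those of Eno3 and Myom1. With all libraries, DESeq2 called 1 of Ttn and Neb and limma-voom called 0. The cut tibial branch had been sutured to muscle for the delay, and the part of muscle tissue in these values was not tested. Gad2, which makes the transmitter GABA, ranged from 4.35 to 41.9 CPM after delay against 1.07 to 5.47 CPM and rose by 2.66 (SE 0.537, adjusted p = 0.0017).

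**Figure D2:**
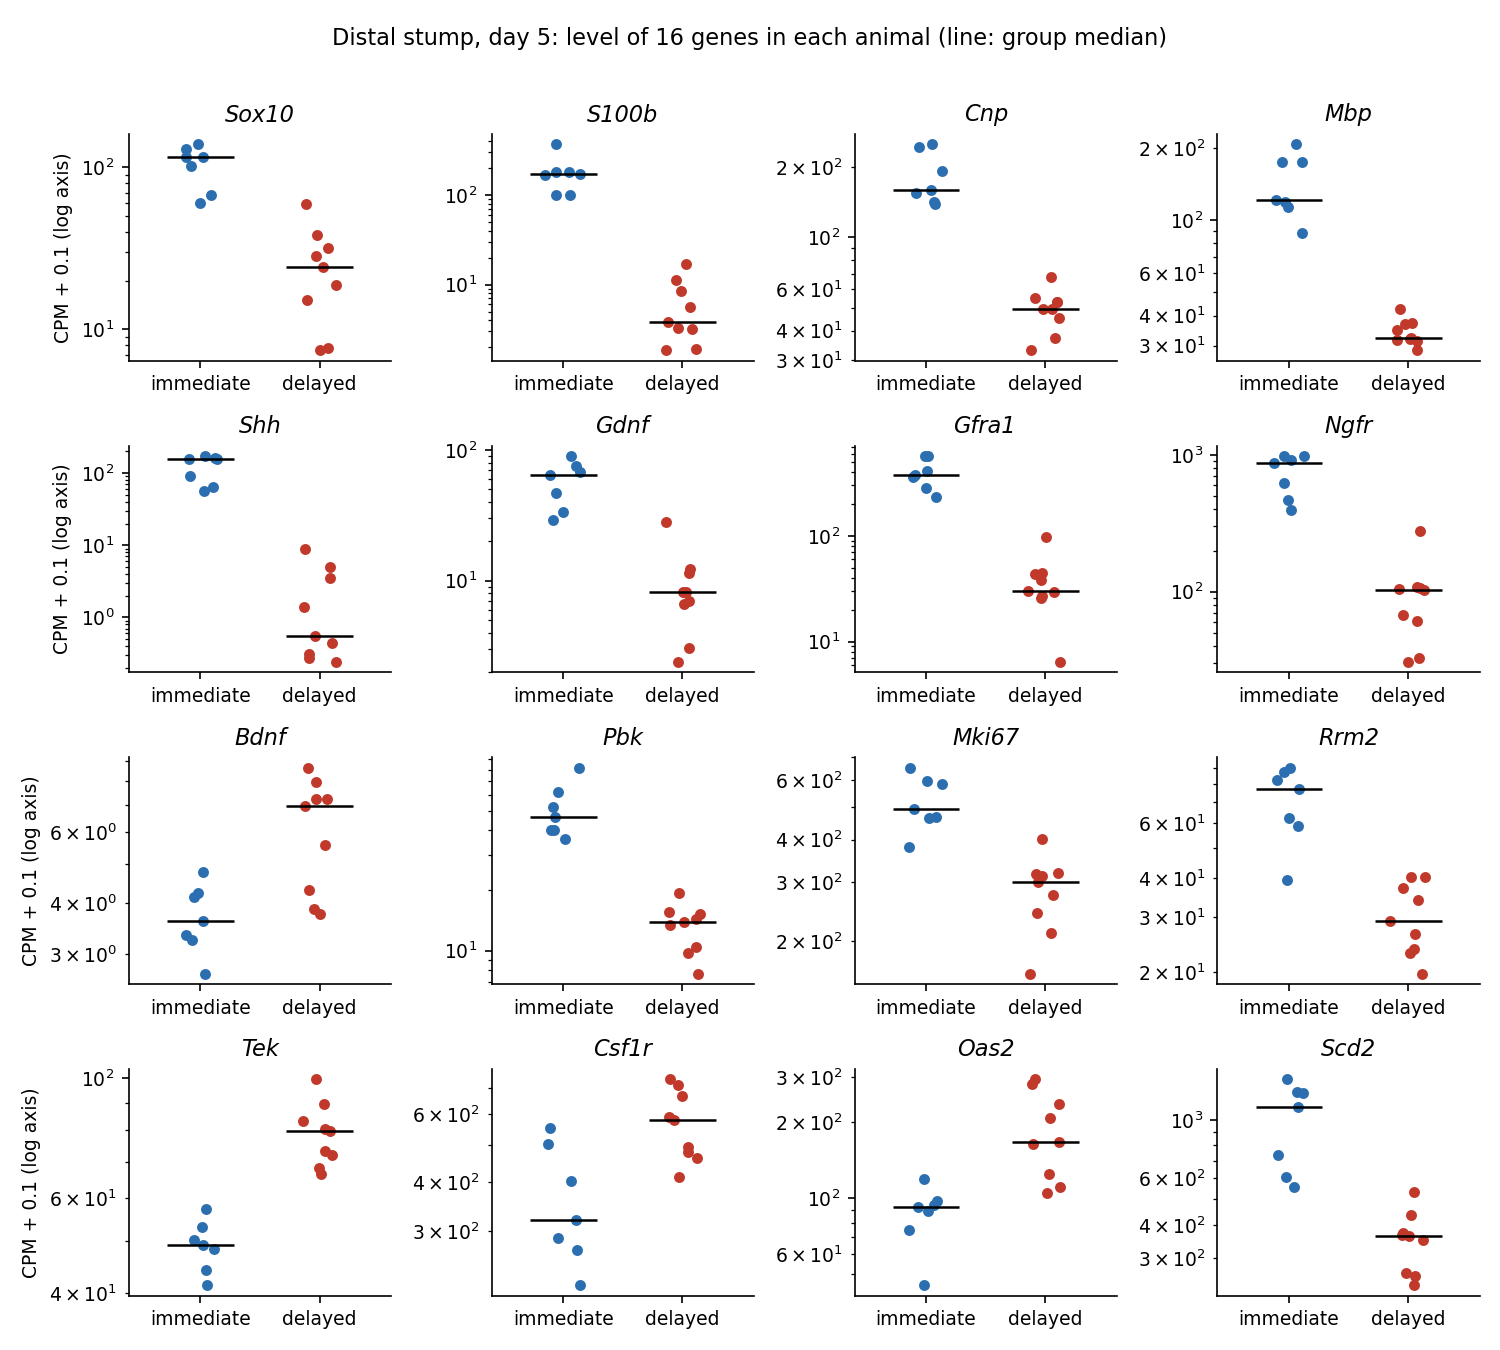
Each point is 1 animal (7 immediate, 9 delayed) and each black line the group median, in CPM + 0.1 on a log axis that differs between panels. Sox10, S100b, Cnp, Mbp, Shh, Gdnf, Gfra1, Ngfr, Pbk, Tek and Scd2 show no overlap between the groups, whereas Bdnf, Mki67, Rrm2, Csf1r and Oas2 overlap.

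Genes that mark Schwann cells in any state were lower after delay. Of 13 tested, 12 fell and 1 rose, with a median change of -1.94 against 0.02 for all tested genes. Their summed level ranged from 502.8 to 1320 CPM after delay and from 1580 to 3283 CPM after immediate repair. Sox10 (chromosome 15, 79154908 to 79165240), the transcription factor that defines Schwann cells, ranged from 7.32 to 59.3 CPM with a median of 24.2 after delay and from 60.1 to 138.8 with a median of 115.7 CPM after immediate repair. It fell by 2.03 (SE 0.352, adjusted p = 0.000524). The groups met without overlapping, since the highest delayed and the lowest immediate animal differed by less than 1 CPM. In these bulk libraries, fewer Schwann cells and less RNA per Schwann cell cannot be told apart.

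Other Schwann cell genes fell by unequal amounts. S100b, a calcium binding protein used as the standard Schwann cell marker, ranged from 1.74 to 16.8 CPM against 99.7 to 367.5 CPM and fell by 4.86 (SE 0.424). Cryab, a small heat shock protein of Schwann cells, fell by 3.32 (SE 0.282), Foxd3, a neural crest transcription factor, fell by 2.81 (SE 0.374), and Gpr126, the receptor that drives myelination, fell by 1.24 (SE 0.159). The exception was Scn7a, a sodium channel family member of Schwann cells, which rose by 0.97 (SE 0.223, adjusted p = 0.00422), from a median of 151.4 to 307.4 CPM. Erbb3, the receptor through which axonal neuregulin reaches Schwann cells, fell by 1.94 (SE 0.333).

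Myelin genes were lower as well, 5 days after surgery in both groups. Of 19 tested, 17 fell and none rose, with a median change of -1.96, and the 2 others had values below 0. Mbp, which compacts myelin, ranged from 28.6 to 42.6 CPM against 88.3 to 206.7 CPM and fell by 2.06 (SE 0.152). Cnp fell by 1.90 (SE 0.156). Pou3f1, a transcription factor of Schwann cells about to myelinate, was at 0.229 to 3.94 CPM after delay and at 17.4 to 42.5 CPM after immediate repair. Egr2, the transcription factor of myelination, was at a median of 22.4 CPM after delay and 20.3 CPM after immediate repair, with a change of -0.02 (SE 0.268, adjusted p = 0.972) whose sign turned in 7 alternative fits.

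Genes of the repair state were mostly lower. Of 27 tested, 18 fell and 1, Bdnf, rose, with a median change of -0.94. With 1 library left out, no repair gene rose without delayed replicate 1, 2, 5, 6, 7 or 8, where Bdnf was under the filter, and 2 rose without delayed replicate 3. Jun, the transcription factor on which the repair state depends, ranged from 137.0 to 212.4 CPM after delay and from 254.0 to 354.1 CPM after immediate repair. It fell by 0.77 (SE 0.0991, adjusted p = 3.93e-05) without overlap. Atf3, an injury-induced partner of Jun, fell by 1.86 (SE 0.203), and Sox2, a factor that keeps Schwann cells unmyelinated, fell by 2.43 (SE 0.354). Olig1 was 1.0 lower, which did not pass (SE 0.485, adjusted p = 0.14).

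The growth factors for axons did not move together. Gdnf, which supports motor neurons, ranged from 2.29 to 28.1 CPM with a median of 8.11 after delay and from 29.1 to 89.8 with a median of 64.4 CPM after immediate repair, and fell by 2.60 (SE 0.393, adjusted p = 0.000169). Gfra1, the receptor that binds GDNF, fell by 3.39 (SE 0.363), from a median of 375.3 to 30.1 CPM. Ngfr, the p75 receptor for neurotrophins, fell by 2.92 (SE 0.386), from a median of 869.5 to 102.6 CPM. Ligand and receptors were thus lower in every delayed animal than in any immediate one. Bdnf, in contrast, rose by 0.72 (SE 0.202, adjusted p = 0.0148), from a median of 3.52 to 6.85 CPM with overlapping groups. It reached the filter on low values in 6 delayed libraries alone, so that its test is conditioned on the group in which it is high, and it was under the filter whenever 1 of these 6 was left out. Artn, a ligand of the GDNF family, was 0.43 lower with an adjusted p of 0.514 and overlapping groups. Ncam1, an adhesion molecule of unmyelinated Schwann cells, was 0.47 higher with an adjusted p of 0.139.

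The ratio of a gene to Sox10 within the same library shows which genes changed unequally to this Schwann cell gene. It was computed for 58 genes of these 3 lists as a log2 ratio and is given as a description, with no test. In 46 genes the ratios of the groups overlapped, and for Erbb3, Mbp and Cnp the medians differed by 0.11, -0.15 and -0.11. Ratios lay apart and lower after delay for Shh (median difference -4.61), Gjb1 (-3.60), S100b (-2.47), Ugt8a (-1.53), an enzyme of myelin lipid synthesis, and Ngfr (-0.83). They lay apart and higher for Scn7a (3.65), Bdnf (3.05), Id2 (2.68), Gap43 (2.41), Fgf5 (2.2), L1cam (1.34) and Matn2 (1.08). Of these last genes, L1cam and Matn2 fell in level, by 0.92 (SE 0.303) and 0.77 (SE 0.222), and Id2, Gap43 and Fgf5 did not pass the test of their level. Other nerve cells can express several of these genes, so the ratios do not measure RNA per Schwann cell. Gjb1 reached the filter in immediate libraries alone and Bdnf in delayed libraries alone, so the filter favoured the separation of their ratios. In some delayed libraries Gjb1 had no counts, and there its ratio rests on the 0.5 added to each count.

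**Figure D3:**
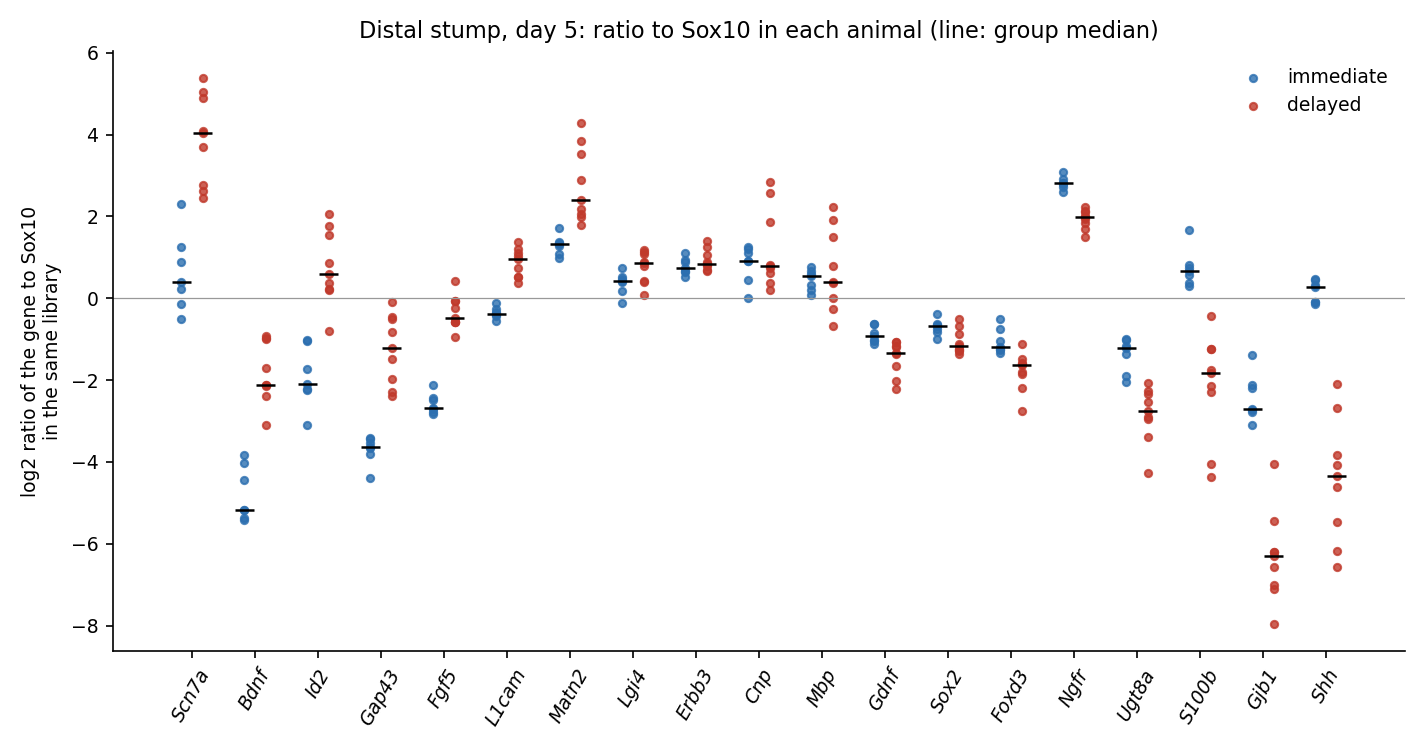
The y axis is the log2 ratio of the gene to Sox10 in the same library, each point 1 animal (blue immediate, red delayed) and each black line the group median. Erbb3, Cnp and Mbp overlap between the groups, while Shh, Gjb1, S100b, Ugt8a and Ngfr lie lower and the 7 genes at the left higher after delay. Gjb1 reached the filter in immediate libraries alone and Bdnf in delayed libraries alone.

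Genes of cell division were lower after delay nearly without exception. Of 52 tested genes of mitosis, 50 fell and none rose, with a median change of -0.88, where 13.5% of all tested genes fell. In 20 of them the groups did not overlap, against 4.68% of all tested genes. Pbk, a mitotic kinase, ranged from 7.57 to 19.4 CPM after delay and from 36.0 to 81.9 CPM after immediate repair and fell by 1.95 (SE 0.195, adjusted p = 3.39e-06). Racgap1, needed for cytokinesis, fell by 1.23 (SE 0.142), Hmmr, a spindle protein, by 1.15 (SE 0.135) and Cenpa, the histone of centromeres, by 0.83 (SE 0.0912). Mki67, the standard proliferation marker, ranged from 160.2 to 400.9 CPM with a median of 298.7 after delay and from 379.4 to 653.2 with a median of 492.1 CPM after immediate repair, a fall of 0.88 (SE 0.158). In Mki67, 1 delayed animal lay above the lowest immediate one, and the summed level of the list was 1244 to 2701 against 2681 to 4625 CPM.

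DNA replication genes moved less. Of 42 tested, 19 fell and none rose, with a median change of -0.37 and 40 values below 0. Rrm2, which makes deoxynucleotides, fell by 1.23 (SE 0.181), from a median of 77.1 to 29.0 CPM. Chaf1a, a chromatin assembly factor, fell by 0.72 (SE 0.113). Pcna, the clamp of DNA polymerase, fell by 0.52 (SE 0.165, adjusted p = 0.0269), a call that was lost without immediate replicate 6 (adjusted p = 0.0623) or 2 (adjusted p = 0.0666). Of 42 replication-dependent histone genes tested, 11 fell, among them Hist1h4a by 0.99 (SE 0.162). With 1 library left out 5 to 13 fell, the fewest without immediate replicate 8, 6 or 2. DESeq2 called 12 of the 42 and limma-voom 22. Histone genes are near copies of each other, so reads may be split between them. Of the genes of arrest, Cdkn1a was 0.10 lower (adjusted p = 0.711), and Cdkn2a, at medians of 1.67 CPM after delay and 3.05 CPM after immediate repair, was under the filter on low values. Cdkn2b, an inhibitor of cyclin-dependent kinases, fell by 0.97 (SE 0.199).

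Promoters of 2 mitotic genes are shown as examples. They were picked after their values were seen, from called genes whose promoter holds both motifs marked below. That these 2 sequences hold the motifs was thus fixed by the choice. The 250 bases before the RefSeq start (GRCm38.p6) are written from 5′ to 3′ on the gene's strand, with CCAAT boxes on either strand (CCAAT or ATTGG) and the cell cycle homology element TTTGAA (or TTCAAA) in capitals. Cdc20, the activator of the anaphase-promoting complex, lies on the minus strand at chr4:118437344-118437593 and fell by 1.04 (SE 0.156). Cdk1, the kinase that starts mitosis, lies on the minus strand at chr10:69352913-69353162 and fell by 0.91 (SE 0.149).
Cdc20: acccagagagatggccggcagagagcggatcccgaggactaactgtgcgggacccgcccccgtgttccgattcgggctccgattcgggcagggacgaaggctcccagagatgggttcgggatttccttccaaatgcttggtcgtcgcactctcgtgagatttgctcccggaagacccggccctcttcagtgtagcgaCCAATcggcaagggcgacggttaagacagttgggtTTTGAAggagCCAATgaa
Cdk1: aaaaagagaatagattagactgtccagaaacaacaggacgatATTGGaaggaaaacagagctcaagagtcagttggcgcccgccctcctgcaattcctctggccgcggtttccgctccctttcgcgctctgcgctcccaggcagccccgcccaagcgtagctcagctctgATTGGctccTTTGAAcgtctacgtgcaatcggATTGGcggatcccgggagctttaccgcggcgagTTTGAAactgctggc

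A CCAAT box was found in 33 of the 43 mitosis promoters matched (76.7%) and in 34.5% of 27025 mouse promoters of the same length. TTTGAA was found in 16 of 43 (37.2%) and in 16.3% of all promoters. Both motifs were searched on both strands and do not overlap each other. A match describes the sequence and is not a bound site.

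**Figure D4:**
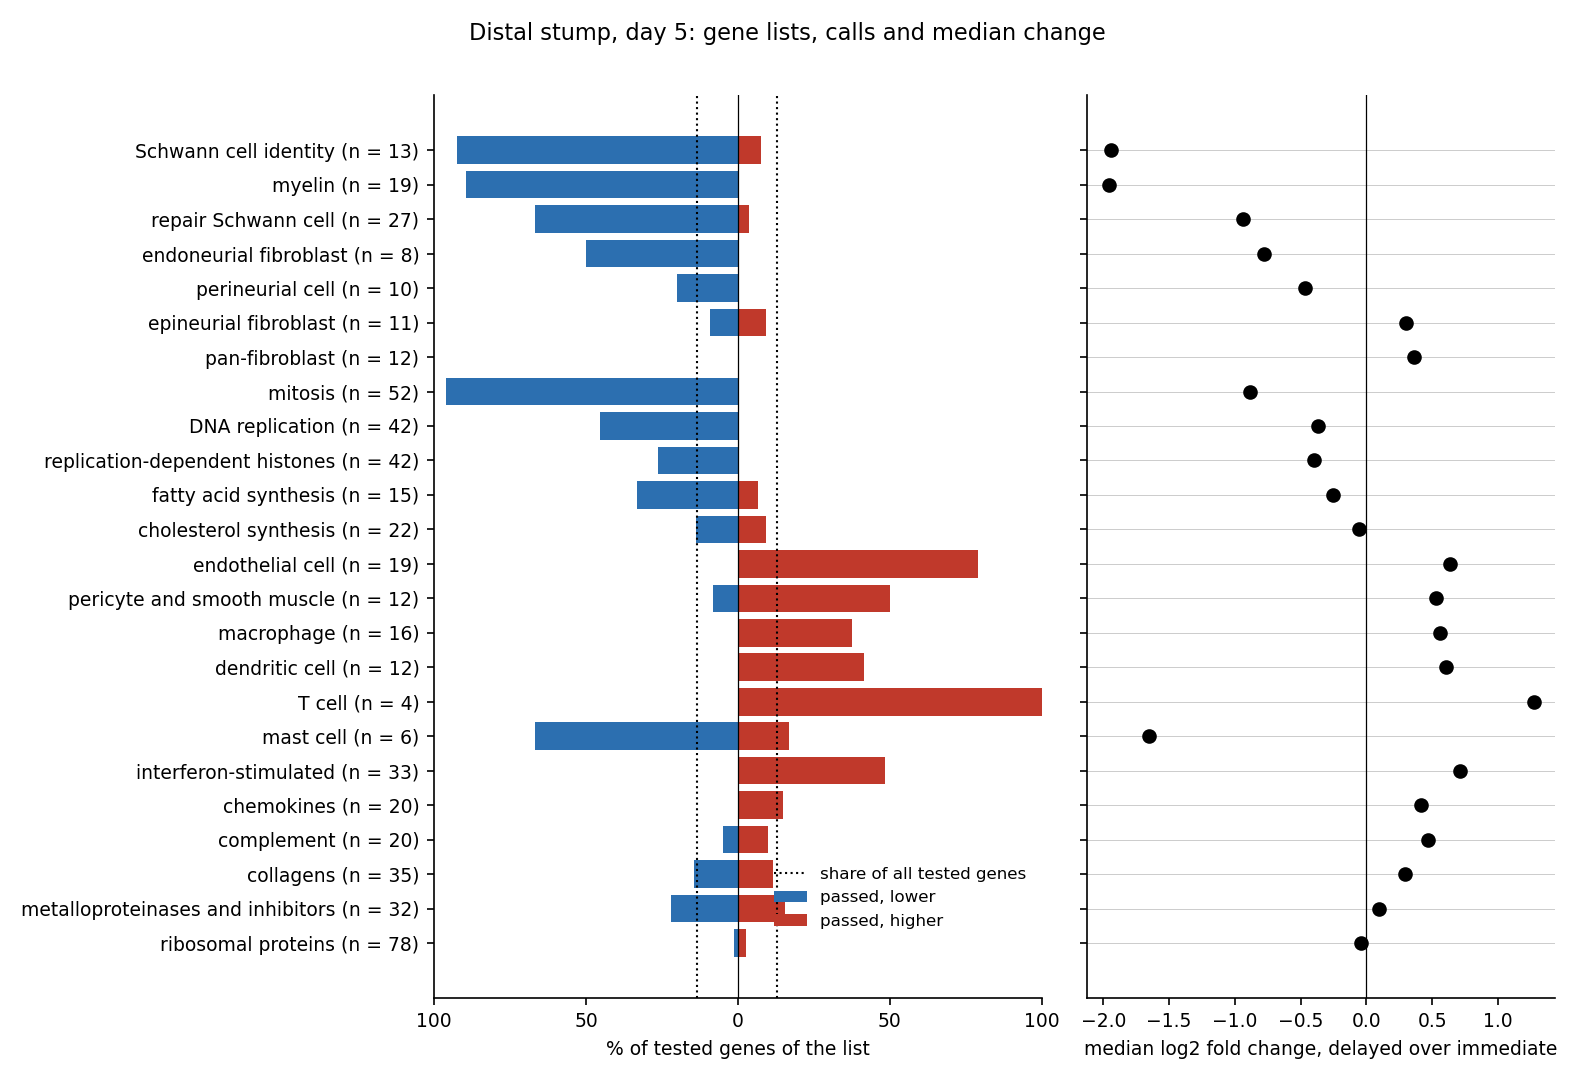
Left, the share of each list's tested genes that passed at an adjusted p of 0.05, lower after delay to the left in blue and higher to the right in red, with dotted lines at the shares of all tested genes (13.5% lower, 12.8% higher). Right, the median log2 fold change of each of the 24 lists drawn (of 45), from -1.96 for myelin to 1.27 for the 4 T cell genes tested.

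Lipid synthesis was lower in part. Of 15 tested genes of fatty acid synthesis, 5 fell and 1 rose, with a median change of -0.25. The rise, of Elovl5, was lost in 5 of the 16 fits that each left out 1 library. Scd2, the desaturase of myelinating cells, ranged from 236.2 to 531.8 CPM after delay and from 555.0 to 1425 CPM after immediate repair and fell by 1.50 (SE 0.214, adjusted p = 9.77e-05). Fads2 fell by 1.23 (SE 0.208) and Me1, which supplies NADPH, by 1.08 (SE 0.136). Of 22 cholesterol synthesis genes, 3 fell and 2 rose, near the shares of all genes. Without delayed replicate 1, 6 fell, and the rises dropped to 1 in 10 of the 16 fits without 1 library, those without delayed replicate 1, 5, 6, 7 or 9 or immediate replicate 1, 3, 4, 6 or 7. Abca1, which exports cholesterol from cells that have taken up lipid, fell by 1.10 (SE 0.125), from a median of 3128 to 1588 CPM without overlap.

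Of 8 tested markers of endoneurial fibroblasts, 4 fell and none rose, with a median change of -0.78, and their summed level was 536.4 to 3315 CPM after delay against 3846 to 7693 CPM. Most of this sum came from Apod and Ngfr, and without them it was 254.4 to 455.3 against 225.6 to 430.4 CPM. Apod, an apolipoprotein abundant in injured nerve, ranged from 193.8 to 2714 CPM with a median of 633.9 after delay and from 2600 to 6409 with a median of 3424 CPM after immediate repair, and fell by 2.30 (SE 0.428). Ngfr is a member of this list and of the repair list. All 10 perineurial genes tested had values below 0, with a median change of -0.46. Ptch1, the hedgehog receptor that is itself a hedgehog target, fell by 1.76 (SE 0.311) and Sfrp5, a Wnt inhibitor, by 1.73 (SE 0.321), and these 2 were the only ones to pass, against 6 without delayed replicate 7 and 4 without immediate replicate 8. Among 11 epineurial genes, Pcolce2, which aids collagen processing, fell by 2.60 (SE 0.228) without overlap and Cd34 rose by 0.44 (SE 0.0964). No other gene of this list passed, where 12.8% of all tested genes rose and 13.5% fell. None of 12 pan-fibroblast genes passed in edgeR, with 10 values above 0 and a median of 0.37, while 3 were higher at an unadjusted p under 0.05, 0 passed in DESeq2 and 1 passed in limma-voom. In edgeR 1 rose without delayed replicate 1 or immediate replicate 4. Col1a1, the main fibrillar collagen, was 0.61 higher (adjusted p = 0.12), and Postn, a matrix protein of wounds, was 0.65 higher (adjusted p = 0.252).

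In the hedgehog pathway, both ligands that passed the filter, Shh and Dhh, fell. Dhh, the ligand of uninjured Schwann cells, ranged from 3.36 to 9.85 CPM after delay and from 12.1 to 43.1 CPM after immediate repair and fell by 2.2 (SE 0.292, adjusted p = 5.24e-05). With Shh and Ptch1, 3 of 11 tested genes fell. Gli3, mainly a repressor of hedgehog targets, rose by 0.65 (SE 0.101), from a median of 29.1 to 43.7 CPM without overlap, and was the only rise in this list, against 3 without delayed replicate 1 and 2 without delayed replicate 7 or immediate replicate 4.

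Collagen genes passed in both directions at about the shares of all tested genes. Of 35 tested, 4 rose and 5 fell, with a median of 0.30, and 2 to 8 rose when 1 library was left out, the most without delayed replicate 1 and the fewest without delayed replicate 2 or 3 or immediate replicate 6 or 1. Col26a1 fell by 3.82 (SE 0.349) from a median of 23.1 to 1.54 CPM, and it and Col2a1 reached the filter on low values in immediate libraries alone, while Col15a1, of basement membranes, rose by 0.72 (SE 0.12) and Col16a1 by 0.63 (SE 0.134). Of 32 metalloproteinases and their inhibitors, 5 rose and 7 fell, where 12.8% of all tested genes rose and 13.5% fell. Mmp17, a membrane-anchored metalloproteinase, fell by 1.78 (SE 0.326) and Timp3, an inhibitor held in the matrix, by 1.34 (SE 0.258), whereas Adamts6 rose by 0.92 (SE 0.188) and Adamts12 by 0.53 (SE 0.0983).

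Genes of blood vessels were higher after delay. Of 19 endothelial genes tested, 15 rose and none fell, with a median change of 0.63, and the summed level was 2129 to 3160 CPM after delay against 1347 to 1916 CPM. Tie1, an endothelial receptor, ranged from 110.8 to 211.0 CPM after delay and from 66.6 to 102.0 CPM after immediate repair and rose by 0.76 (SE 0.13, adjusted p = 0.000477). Pecam1, of endothelial junctions, ranged from 298.8 to 402.3 CPM against 156.8 to 267.9 CPM. Of 12 tested genes of pericytes and smooth muscle, 6 rose and 1, Cspg4, fell, with a median of 0.53. The Cspg4 call was lost without immediate replicate 6, 2 or 3. Notch3, the Notch receptor of mural cells, rose by 1.02 (SE 0.204), Acta2, smooth muscle actin, by 0.65 (SE 0.139) and Pdgfrb, the receptor that recruits pericytes, by 0.41 (SE 0.103). Markers of lymphatic vessels divided, since Flt4 rose by 0.69 (SE 0.197) and Reln, which Schwann cells also express, fell by 3.34 (SE 0.462), from a median of 581.3 to 49.0 CPM.

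Some genes of macrophages and of the interferon response rose, with overlapping groups. Of 16 macrophage genes, 6 rose and none fell, with a median change of 0.56. Csf1r, the receptor for the macrophage growth factor, ranged from 414.0 to 735.8 CPM with a median of 576.8 after delay and from 217.9 to 550.9 with a median of 321.4 CPM after immediate repair, a rise of 0.64 (SE 0.186, adjusted p = 0.0168). Ms4a7 rose by 1.05 (SE 0.262) and Aif1 by 0.89 (SE 0.247). None of 9 tested genes of resident-type macrophages passed in edgeR, with 8 values above 0, 1 gene higher at an unadjusted p under 0.05 and 0 passing in DESeq2 or limma-voom, while 2 rose in edgeR without immediate replicate 4. Of 14 genes of inflammatory or wound macrophages 1 rose and 1 fell, where 12.8% of all tested genes rose and 13.5% fell. Their median change was 0.14. With 1 library left out, 2 rose without delayed replicate 8 or immediate replicate 8, and 2 fell without delayed replicate 1. Thbs1, thrombospondin, rose by 0.57 (SE 0.127) and Saa3, an acute phase protein, fell by 1.33 (SE 0.442), a call lost without delayed replicate 4, 6, 8 or 9 or immediate replicate 2 or 4. Cd163, a scavenger receptor of macrophages, was 0.80 lower (adjusted p = 0.271).

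Of 33 interferon-stimulated genes, 16 rose and none fell, all 33 had values above 0, and the median change was 0.71. The count depended on single libraries, at 6 without immediate replicate 2, 8 without immediate replicate 3 or 7 or delayed replicate 6, 9 without delayed replicate 3 and 19 without immediate replicate 6. Parp14 ranged from 324.7 to 713.3 CPM against 191.3 to 407.6 CPM and rose by 0.77 (SE 0.171, adjusted p = 0.00316), and Irf1, a transcription factor of this response, by 0.73 (SE 0.166). The core of the interferon-stimulated response element, GAAA followed by any 2 bases and GAAA again, searched on both strands, was found in 12 of 24 matched promoters of the list, in 3 of the 10 matched promoters of its called genes and in 3.04% of all promoters. The 250 bases before the start of Gbp7 (plus strand, chr3:142530086-142530335), a guanylate-binding protein of interferon defence, and of Stat2 (plus strand, chr10:128270248-128270497), which carries the interferon signal to DNA, are shown with this element, here read on the other strand as TTTC, 2 bases and TTTC, in capitals. Both genes were picked as examples after their values were seen, from called genes whose promoter holds the element. Gbp7 rose by 0.80 (SE 0.244) and Stat2 by 0.71 (SE 0.223). Both calls were lost without immediate replicate 2 and, for Stat2, also without immediate replicate 7 or delayed replicate 6.
Gbp7: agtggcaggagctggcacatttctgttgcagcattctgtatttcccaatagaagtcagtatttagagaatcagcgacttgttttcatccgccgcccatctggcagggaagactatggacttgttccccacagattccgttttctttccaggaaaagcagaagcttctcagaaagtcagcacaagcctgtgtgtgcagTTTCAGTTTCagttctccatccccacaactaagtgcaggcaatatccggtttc
Stat2: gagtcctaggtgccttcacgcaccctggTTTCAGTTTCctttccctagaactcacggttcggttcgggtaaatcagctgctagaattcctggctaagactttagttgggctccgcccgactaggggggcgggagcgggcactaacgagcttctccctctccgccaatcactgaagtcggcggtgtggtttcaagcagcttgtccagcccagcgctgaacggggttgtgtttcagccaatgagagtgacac

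Other immune genes were few or close to the filter on low values. Of 20 chemokine genes tested, 3 rose and none fell, near the 12.8% of all tested genes that rose, and 1 fell without delayed replicate 1. Cxcl16, a chemokine held at the membrane, ranged from 86.9 to 187.3 CPM after delay and from 44.5 to 75.9 CPM after immediate repair and rose by 1.07 (SE 0.149, adjusted p = 8.23e-05). Cx3cl1 rose by 0.53 (SE 0.182), a call lost in 12 of 16 fits that each left out 1 library. Of 20 complement genes, the receptors C3ar1 and C5ar2 each rose by 0.71 (SE 0.166 and 0.14) and Cd59a, which blocks lysis by complement, fell by 0.82 (SE 0.233). The 2 rises are a smaller share than among all tested genes, while 6 rose without immediate replicate 4.

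Of 13 T cell genes in the table, 4 passed the filter and all 4 rose, among them Lck, the kinase of the T cell receptor, by 1.27 (SE 0.431), and Cd28, a costimulatory receptor, by 0.79 (SE 0.27). The calls of Lck, Cd28 and Cd4 were fragile, being lost in 12, 9 and 11 of the 16 fits without 1 library, and none of the 4 was called without delayed replicate 5 or immediate replicate 6, 1, 2 or 3. The summed T cell level was 25.9 to 123.6 CPM after delay against 14.2 to 54.1 CPM, and Cd3e was under the filter at medians of 1.53 and 0.473 CPM. Of 7 tested cytotoxic genes, 1 rose and 1 fell, near the shares of all tested genes, and 6 had values above 0, with a median change of 1.17. The number that rose was 6 without immediate replicate 8, 4 without delayed replicate 1 or 7 and 0 in the 13 other fits without 1 library. Gzmb, granzyme B, fell by 2.98 (SE 0.412), from a median of 51.4 to 7.32 CPM without overlap. Prf1, perforin, rose by 1.42 (SE 0.487, adjusted p = 0.0398), a call lost in 13 of the 16 fits. Genes of dendritic cells rose in 5 of 12 cases, among them Ciita, which switches on antigen presentation, by 0.87 (SE 0.198). The count was 7 without immediate replicate 8, and fell to between 1 and 3 without any other single library except delayed replicate 1.

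Mast cell proteases were lower. Cma1 ranged from 0.579 to 14.9 CPM with a median of 3.26 after delay and from 10.97 to 30.2 with a median of 22.1 CPM after immediate repair, and fell by 1.83 (SE 0.477, adjusted p = 0.00956). Mcpt4 fell by 1.77 (SE 0.501) and Tpsb2 by 1.72 (SE 0.504), so that 4 of 6 tested mast cell genes fell. Kit, the stem cell factor receptor that other cells also carry, rose by 0.81 (SE 0.196). Adipocyte genes varied widely between animals, and Adipoq ranged from 0.579 to 202.6 CPM after delay and from 4.27 to 74.0 CPM after immediate repair, with a change of 0.98 (SE 0.842, adjusted p = 0.418).

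For the further lists, the shares of all tested genes were 12.8% higher and 13.5% lower. In the serine synthesis and stress list, 4 of 18 fell, among them Psat1 by 1.0 (SE 0.176) and Phgdh by 0.58 (SE 0.172), enzymes of serine synthesis. Of 19 immediate early genes 3 fell, namely Atf3, Jun and Nr4a2 (0.86, SE 0.176), near that share, and none rose. None of 16 genes of the unfolded protein response, 15 of the circadian clock or 9 of the glucocorticoid response passed in edgeR. In each of these lists 1 gene had an unadjusted p under 0.05, DESeq2 called 1, 0 and 0 of their genes and limma-voom 0, 1 and 4. With 1 library left out, at most 1 gene of the first 2 lists passed in either direction, whereas 3 glucocorticoid genes rose without immediate replicate 1 and 1 fell without delayed replicate 5. Dbp, a clock output gene, was 0.37 higher (adjusted p = 0.307). Of 78 ribosomal protein genes 2 rose and 1 fell, with a median of -0.04, and none rose without immediate replicate 1, 2 or 3 and 1 without immediate replicate 6 or 8 or delayed replicate 1, 5 or 7. Of 5 tested neuronal genes 2 fell and 1 rose. Uchl1, a deubiquitinase that Schwann cells in injured nerve can express, fell by 3.32 (SE 0.362), Sncg, a synuclein, fell by 1.38 (SE 0.424), a call lost without immediate replicate 6 or 2, and Stmn2, a microtubule protein of growing axons, rose by 1.17 (SE 0.306). The Hox genes Hoxd8 and Hoxd4 rose by 0.71 (SE 0.13) and 0.91 (SE 0.249), and none of 11 fell.

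Macrophages sorted from the bridge gave a second readout of the delay at day 5, in 9 delayed and 8 immediate libraries, 16 of them from the animals of the stump libraries. The difference between the effect of delay in the stump and in macrophages was fitted for 8265 genes expressed in both kinds of library, and 358 (4.33%) passed, 131 with a higher and 227 with a lower effect in the stump. Of these, 335 were also called in the stump, where 23.4% of all genes in this fit were called. In macrophages 2 of these were called, and the share of all genes in this fit called there is not given here. The count ran from 227 without immediate stump replicate 2 to 460 without immediate stump replicate 4. The kinds of library were prepared differently, so only effects were compared and no levels. This fit treated the stump and macrophage libraries of the same animal as independent.

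Of the 227 genes with a lower effect in the stump, 217 fell there. Against 2.75% of all genes in this fit, they included 3 of 5 myelin genes tested, 3 of 6 repair genes, the 1 Schwann cell identity gene, 2 of 19 immediate early genes and 1 each of 8 genes of fatty acid synthesis, 8 of mitosis, 20 of DNA replication, 13 of complement and 16 of lipid handling. The 6 largest differences were those of Pou3f1, Nrcam, Aspa, Mbp, Gadd45a and Scd2. Pou3f1 fell by 3.87 in the stump and was 0.03 lower in macrophages, a difference of -3.86 (SE 0.513, adjusted p = 1.87e-05), and in the stump it reached the filter in immediate libraries alone. Nrcam, an adhesion molecule of nodes of Ranvier, differed by -3.78 (SE 0.959), Aspa, which splits N-acetylaspartate for myelin lipids, by -3.19 (SE 0.581), Mbp by -2.44 (SE 0.458), Gadd45a, a stress response gene, by -2.43 (SE 0.422) and Scd2 by -2.42 (SE 0.486). All 6 fell in the stump.

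Of the 131 genes with a higher effect in the stump (1.58% of those tested in this fit), 118 rose there. The 6 largest of these differences, however, belonged to genes with values below 0 in macrophages. Znrf2 (difference 1.95, SE 0.454), Egln1 (1.81, SE 0.469), an oxygen sensor of the hypoxia response, Heca (1.72, SE 0.272), Vcam1 (1.67, SE 0.426), Ranbp9 (1.65, SE 0.356) and Gem (1.53, SE 0.424) had changes between -1.88 and -0.85 in macrophages. In the stump they lay between -0.05 and 0.83, and only Znrf2 and Ranbp9 passed there, calls that were lost in 5 and 9 of the fits without 1 library. In macrophages Heca alone of the 6 passed (adjusted p = 0.0333 in edgeR), and the others had adjusted p-values from 0.282 to 0.538. Of genes named above, Cxcl16 (difference 1.12, SE 0.224), Irf1 (0.89, SE 0.224), Zmynd15 (1.07, SE 0.216), Jun (-1.02, SE 0.172), Atf3 (-1.69, SE 0.292) and Abca1 (-0.95, SE 0.176) also passed. Of the macrophage list, 2 of 16 genes had a higher effect in the stump and none a lower one, with a median difference of 0.67. Of 32 interferon-stimulated genes tested in this fit, 1 had a higher effect and none a lower one, with a median difference of 0.70.

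**Figure D5:**
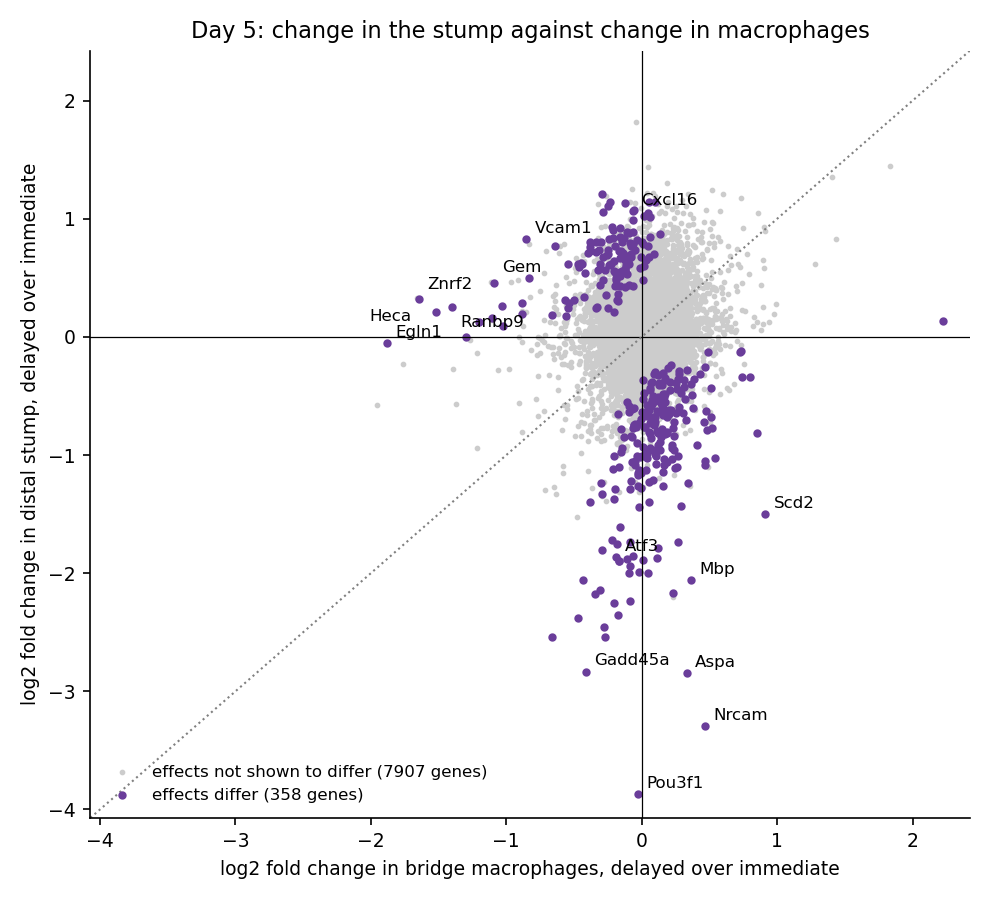
Each point is 1 of 8265 genes, with its log2 fold change of delayed over immediate repair in bridge macrophages on the x axis and in the distal stump on the y axis, and the dotted line marks equal changes. The 358 genes whose effects differ (purple) lie mostly along the stump axis, with Pou3f1 at -3.87 in the stump and -0.03 in macrophages.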

How the data were processed

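RNA of the distal stump had been depleted of ribosomal RNA and sequenced as directional single-end libraries. Per the labels and methods, the authors trimmed reads with cutadapt 1.8, removed residual ribosomal reads with bowtie2 and aligned them with TopHat2 2.1.1 to mm10 with the UCSC genes. They deposited estimated counts per gene, without scaling or a filter, and which program made them is not given in the sources used here. Of the stump values 1.12% were not whole, and these were rounded.

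Genes reaching 5 CPM in 6 or more of the 16 libraries were tested (12229 of 23361) in edgeR 4.0.16 (R 4.3.3), with TMM scaling, the quasi-likelihood test and no covariates. SE is the size of the log2 fold change over the root of F. The authors' methods compared groups with cuffdiff, which needs aligned reads. The difference of effects was fitted over the 33 stump and macrophage libraries of day 5. The 16 stump animals each also gave a macrophage library, and a fit with the animal as a block was tried. Groups and directions follow the titles and the repair timing field of the labels. No 2 libraries held the same counts. Mouse numbers mark separate animals, and p-values of the stump comparison measure the spread between them. The main fit of the difference of effects treated the stump and macrophage libraries of the same animal as independent. Depth limits genes of a few CPM, where 1 CPM is under 10 counts.

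The 45 gene lists and their member genes were chosen with earlier results of these data known. Named are the 12 largest falls and 12 largest rises among called genes without overlap, 28 genes of interest, up to 4 genes of smallest p per list and the 6 largest differences each way, and some of these genes are not reported here. Positions are from GENCODE for GRCm38 and promoters from RefSeq. Alternatives were DESeq2 1.42.0, limma 3.58.1 (voom with quality weights), other scalings and filters, sex as a covariate, 1 sex alone, a replicate block and each library left out. Tests were tested on simulated data.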

Additional observations from a re-analysis of the deposited data

Results flagged for a closer look

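The gap of 1 animal to the rest of its group was large against the group's range in 11 of 388 such group checks, where chance alone would give about 1 in 20. In delayed replicate 5, Eno3 stood at 167.7 CPM and Myom1 at 81.2 CPM, the muscle genes described above. Delayed replicate 3 held Gfra1 at 6.30 CPM, with the other delayed animals at 25.9 to 97.8 CPM. Delayed replicate 7 held Atp10b at 2.40 CPM, delayed replicate 4 held Tie1 at 211.0 CPM and delayed replicate 1 held Prf1 at 0.579 CPM. Among immediate animals, Kit was at 18.1 CPM in replicate 6 and Adamts12 at 148.1 CPM in replicate 4. Of the summed lists, neutrophil genes were at 128.6 CPM and hedgehog pathway genes at 554.0 CPM in delayed replicate 8, and p53 target and senescence genes at 1009 CPM in delayed replicate 1.

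The effect of delay differed between the stump and bridge macrophages by the test of the difference itself in 358 genes. Those with the largest lower effects in the stump were Pou3f1 (-3.86), which reached the filter on low values in immediate stump libraries alone, Nrcam (-3.78), Aspa (-3.19), Mbp (-2.44), Gadd45a (-2.43) and Scd2 (-2.42), and those with the largest higher effects were Znrf2 (1.95), Egln1 (1.81), Heca (1.72), Vcam1 (1.67), Ranbp9 (1.65) and Gem (1.53).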

How the results depend on the processing

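The main test gave 3221 calls in the stump, and the total under another tool, scaling or filter ran from 3117 to 4438. Of the 3221 genes, 2629 (no filter) to 3215 (DESeq2) were also called in those fits. With males alone 1298 genes passed (442 higher, 856 lower) and with females alone 594 (137 higher, 457 lower), in fits with fewer animals. The replicate numbers do not pair the animals of the 2 groups, which are different mice, since same-numbered animals correlated between -0.245 and 0.114 and only number 6 correlated best with its own number. The replicate block left 2159 calls, 890 of them higher, over 14 libraries, against 3317 without the block over the same libraries, a fit added after the data were seen. With 1 library left out, 2363 to 3347 genes passed, 1005 to 1595 of them higher and 1358 to 1771 lower, the fewest without immediate replicate 2. The difference from macrophages gave 227 to 460 genes with 1 library left out and 364 with the animal as a block, which changed no other result by over 1.5 times. Median changes of the 8 main lists moved by less than the spread between animals, except that of repair Schwann cell genes with males alone (-1.35).

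Of the 130 called genes named, all kept their direction in every fit in which they were tested except Neb, at -0.33 with males alone. With males alone 43 genes besides Neb no longer passed, and with females alone 72. The others that turned had not passed. Artn was at 0.27 with females alone, Cdkn1a at 0.058 with males alone, and Adipoq at -0.37 under the block, -0.29 over its 14 libraries and -0.93 with males alone. Egr2 was at 0.28 with males alone, 0.036 over the 14 libraries and -0.12 to 0.11 with 1 library left out. Egln1 was at 0.0075 in limma-voom and -0.094 to 0.0079 with 1 library left out. The cause was not tested. At 3898778 to 9212710 counts a library, genes of a few CPM rest on few reads.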
